A study of Mus musculus with 6 samples.

Results

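Complement is a cascade of blood proteins that marks microbes, immune complexes and dying cells for removal. C1q, built from the products of C1qa, C1qb and C1qc, starts the classical pathway, which cleaves C4 and then C3; properdin, encoded by Cfp, stabilises the C3-cleaving enzyme of the alternative pathway; and the fragments C3a and C5a act on the receptors encoded by C3ar1 and C5ar1. CD55 protects cells by breaking up the C3-cleaving enzymes. Much of the cascade is made in the liver, but C1q and properdin come largely from macrophages and other myeloid cells. The genes described here are these 9 complement components and receptors (C1qa, C1qb, C1qc, C4b, C3, Cfp, C3ar1, C5ar1 and Cd55), found by symbol among the 55951 genes of the deposited expression table, each with a single row of that symbol. Other complement genes, 43 in number, are given beside them.

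RNA was sequenced from CD8+ T cells of the spleen gated as CD3+, CD8+, CD4-, CD44+ and CD62L- (effector-memory cells) and divided by a reporter into 2 groups of 3 libraries. The S100A4-negative group was EGFP- and the S100A4-positive group EGFP+. All mice were C57BL/6 with the S100A4-EGFP genotype, in which EGFP is a fluorescent reporter of S100A4, a calcium-binding protein that macrophages also make, and all had asthma induced by ovalbumin (OVA); the labels list the treatment as untreated. The animals behind each library, and their age, are not given in the sources used here, so p-values measure the spread between these libraries, which may be technical.

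The libraries held 14925260 to 18660188 reads, recovered as whole numbers from the deposited values. S100a4 itself had 0 to 3 reads in each S100A4-negative library and 9 to 25 in each S100A4-positive one. Levels are FPKM (fragments scaled by transcript length and library depth, a level per length). Differences are S100A4-positive minus S100A4-negative means of log2(FPKM + 1), which understates changes of low genes, and a gene is called when the adjusted p of limma, fitted over the 13241 genes that average 1 FPKM or more, is under 0.05. The median difference of all tested genes was -0.36. T cell markers, the genes of the gate, were lower and macrophage markers higher in S100A4-positive libraries: summed FPKM of 10 T cell markers was 2187 to 2604 in the S100A4-negative group and 354 to 488 in the S100A4-positive group, while 14 monocyte and macrophage markers summed to 702 to 901 and 7930 to 9141. No marker of either list was at 0 in all libraries. In such bulk samples fewer cells of a type and less RNA per cell cannot be told apart, and the part of other cells in the results below was not tested.

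C1qa, C1qb and C1qc are neighbours on the minus strand of mouse chromosome 4 (GRCm38). In GENCODE M21, C1qb spans 136880129 to 136886187, C1qc 136889804 to 136893065 and C1qa 136895917 to 136898803. Gaps of 3616 bases between C1qb and C1qc and 2851 bases between C1qc and C1qa separate them. The whole cluster covers 18675 bases. None of the 3 shares exon bases with another annotated gene, and none of their transcripts holds a 100-base word found in a transcript of another gene. Because the 3 genes were all higher in S100A4-positive libraries, the sequence just upstream of C1qb and C1qc is shown, from RefSeq on GRCm38.p6. C1qa had no entry among the upstream sequences used. Each sequence runs 5′ to 3′ on the strand of the gene. It ends at the base before the first transcribed base of RefSeq (C1qb, chr4:136886201-136886450) or, for C1qc, before the longer transcript of GENCODE (chr4:136893066-136893164). Capitals mark GAGGAA or its reverse complement, the core recognised by the myeloid transcription factor PU.1.
C1qb upstream: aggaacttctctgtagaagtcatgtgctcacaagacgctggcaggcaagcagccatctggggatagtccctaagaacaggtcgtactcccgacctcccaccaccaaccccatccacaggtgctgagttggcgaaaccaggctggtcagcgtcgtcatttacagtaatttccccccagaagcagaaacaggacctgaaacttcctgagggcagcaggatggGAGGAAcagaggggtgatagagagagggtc
C1qc upstream: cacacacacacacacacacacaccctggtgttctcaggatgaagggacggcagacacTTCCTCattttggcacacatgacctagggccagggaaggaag
Within 250 bases before the RefSeq start, GAGGAA on either strand was found in 7601 of 32536 promoters, or 23.4%. Among the 7 genes described here that have an entry it was in those of C1qb and C1qc. Its first base lay 30 bases before the start in C1qb, on the strand printed, and 193 bases before it in C1qc, on the opposite strand. TGCTGAC, a motif of MAF factors, was in 3.8% of all promoters and in that of Cd55. TTGCNNAA, a C/EBP motif, was in 9.6% and in that of C3. These are matches of letters, read on both strands, and not measured binding.

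All 9 genes passed the filter and were called, 8 higher and Cd55 lower in S100A4-positive libraries; of all tested genes, 62.3% were called, 19.0% higher and 43.4% lower. In each of the 9 the 3 libraries of a group lay apart from the 3 of the other, which was so for 70.0% of all tested genes (20.9% higher and 49.1% lower). The median difference of the 9 was 2.17, against -0.36 over all genes tested. C4b passed the filter only through its level in S100A4-positive libraries, where it is higher.

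**Figure D1:**
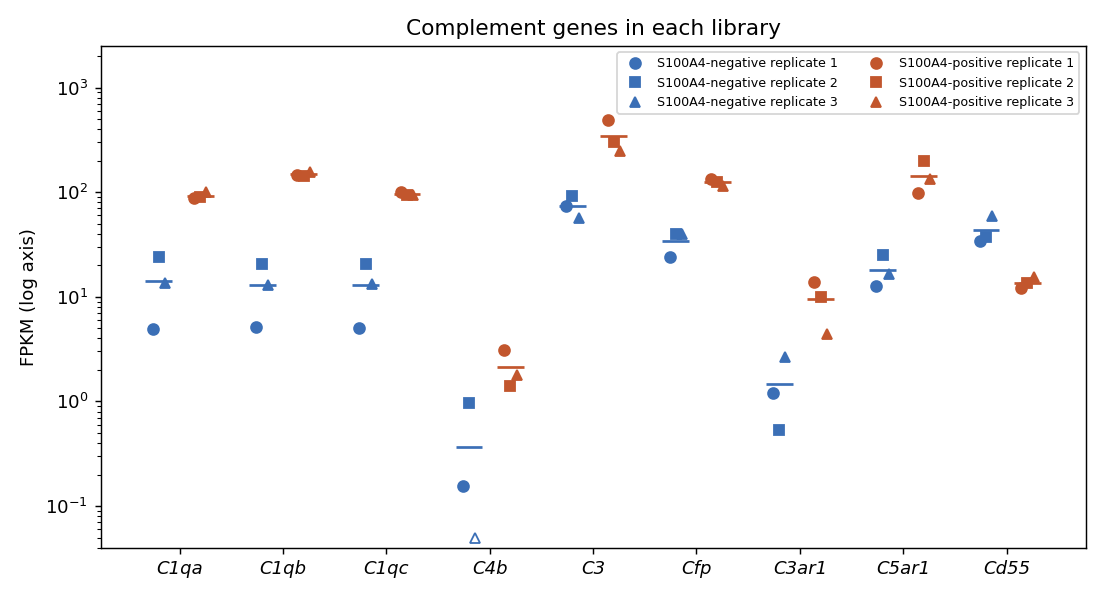
FPKM of the 9 complement genes in each library on a log axis, blue for S100A4-negative and orange for S100A4-positive, with symbols for replicates 1 to 3 and a bar at each group mean; the open triangle of C4b at the foot of the axis is a value of 0. The groups separate in each gene, and Cd55 is the gene with the S100A4-negative libraries on top.

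C1qb, the B chain of C1q, was at 5.09, 20.6 and 13.1 FPKM in S100A4-negative replicates 1, 2 and 3 and at 146, 144 and 157 FPKM in the S100A4-positive ones. The lowest S100A4-positive library stood far above the highest S100A4-negative one. The values rest on 94, 399 and 266 reads and on 2690, 2332 and 2962 reads. The mean FPKM rose 11.5-fold, from 12.9 ± 7.77 to 149 ± 7.10 (SD, n = 3 in each group), a difference of 3.61 (SE 0.41, limma adjusted p = 3.54e-04). It was the 145th highest difference of the 13241 genes tested.

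C1qa, the A chain, had 4.87, 24.2 and 13.6 FPKM in S100A4-negative and 87.2, 90.3 and 101 FPKM in S100A4-positive libraries. Again replicate 2 was the highest and replicate 1 the lowest of the S100A4-negative libraries, and no values overlapped. Its difference was 2.86 (SE 0.46, limma adjusted p = 0.00165). C1qc, the C chain, went from 4.99, 20.6 and 13.3 to 99.3, 94.7 and 94.5 FPKM, with a difference of 2.99 (SE 0.41, limma adjusted p = 8.38e-04). The 3 genes thus kept the same order of libraries within the S100A4-negative group. They did not in the S100A4-positive group, where C1qa rose and C1qc fell from replicate 1 to 3 and C1qb was lowest in replicate 2.

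The summed FPKM of the 3 chains was 14.9, 65.4 and 39.9 in S100A4-negative replicates 1 to 3 and 332, 329 and 352 in S100A4-positive ones. It differed 4.37-fold between the highest and lowest S100A4-negative library and 1.07-fold among S100A4-positive libraries. The monocyte and macrophage markers summed to 702, 901 and 814 FPKM in S100A4-negative replicates 1 to 3, so replicate 2 was highest and replicate 1 lowest there too. The 6 red pulp macrophage markers (Spic, Vcam1, Slc40a1, Hmox1, Cd163 and Mrc1) summed to 99.5, 148 and 127 FPKM in the same libraries. Most of that sum was Hmox1, at 72.4, 92.3 and 85.8 FPKM. Spic was at 2.02, 8.44 and 4.78 FPKM and Vcam1 at 5.06, 14.5 and 10.2 FPKM, each in the same order of libraries. In S100A4-positive replicates 1 to 3 the red pulp list summed to 1762, 1789 and 1513 FPKM and the monocyte and macrophage list to 9141, 7930 and 8053 FPKM. The order of the libraries there was not that of C1q, which was highest in replicate 3. Hmox1 was again most of the red pulp sum, at 1416, 1322 and 1102 FPKM. Spic was at 190, 358 and 301 FPKM and Vcam1 at 49.2, 38.7 and 43.0 FPKM, neither highest in replicate 3. Of the 6 red pulp genes, 5 were tested and called higher, beside 19.0% of all tested genes. Cd163 was the member under the filter. Whether these cells account for the C1q reads was not tested.

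**Figure D2:**
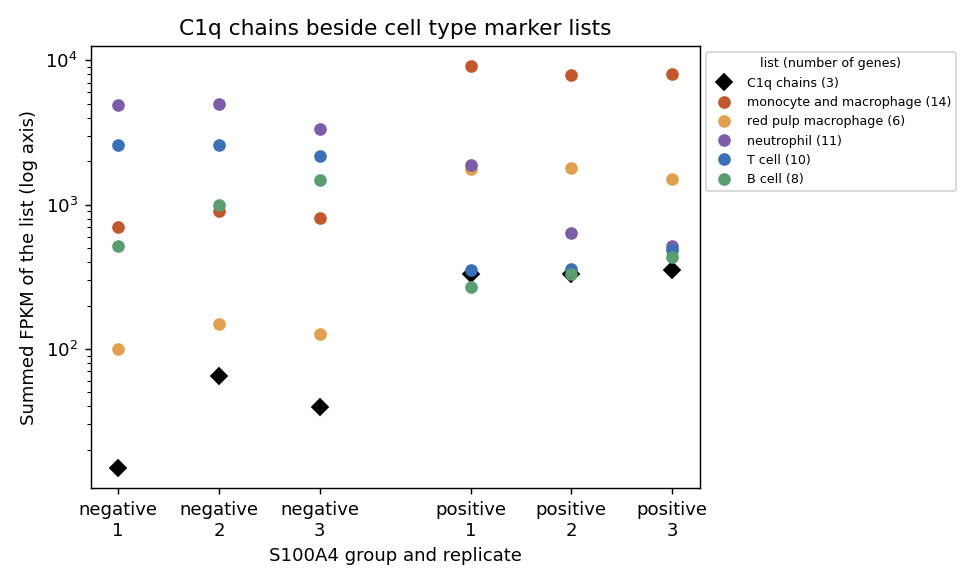
Summed FPKM on a log axis of the 3 C1q chains (diamonds) and of 5 cell type marker lists (circles, number of genes in brackets) in each library. C1q and both macrophage lists are higher in the S100A4-positive libraries, T cell, B cell and neutrophil markers are lower there, and S100A4-negative replicate 1 has the lowest C1q sum, 14.9 FPKM.

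The balance between the chains also differed between the groups. C1qb made up 34.0%, 31.6% and 32.8% of the summed C1q FPKM in S100A4-negative libraries and 43.9%, 43.7% and 44.6% in S100A4-positive ones. The means were 32.8% ± 1.25 and 44.0% ± 0.45 (SD, n = 3), a difference of 11.2 percentage points (exact two-sided permutation p = 0.1, the smallest that 3 against 3 allows). The share of C1qa was lower in S100A4-positive libraries, at 27.4% ± 1.18 against 34.5% ± 2.25, and that of C1qc was 28.5% ± 1.54 against 32.7% ± 1.06 (each n = 3 and exact permutation p = 0.1; 3 shares were compared, which sum to the whole). The ratio of C1qb to C1qa FPKM was 1.04, 0.853 and 0.967 in S100A4-negative and 1.67, 1.59 and 1.56 in S100A4-positive libraries. The chains were thus near equal in the first group, and C1qb led in the second. As a share of C1q reads, C1qb took 34.7% in S100A4-negative replicate 1, with a 95% Wilson interval of 29.3% to 40.5%, and 44.4% in S100A4-positive replicate 2, with an interval of 43.0% to 45.7%. The intervals cover counting error only.

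**Figure D3:**
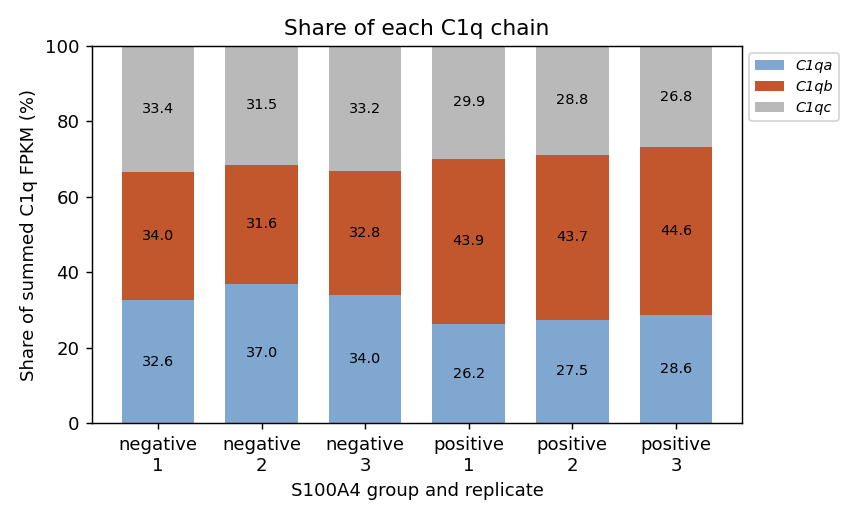
Share of C1qa, C1qb and C1qc in their summed FPKM, in percent, for each library. The C1qb band is 31.6% to 34.0% in the S100A4-negative and 43.7% to 44.6% in the S100A4-positive libraries.

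The genes whose pattern over the 6 libraries was most like that of C1q were found by the root mean square distance between centred log2(FPKM + 1) values, a description in which the difference between the groups weighs most. Among 9498 genes that average 5 FPKM or more, the median distance was 1.83 log2 units. The chains themselves lay 0.096 (C1qc), 0.16 (C1qa) and 0.23 (C1qb) from their mean profile. The nearest genes outside the set were Clec4n, which encodes the fungal lectin receptor Dectin-2 (distance 0.14), and Srxn1, the antioxidant enzyme sulfiredoxin (0.19). Ptafr, the receptor for platelet-activating factor, followed at 0.26, then Sirpb1b at 0.28, which belongs to a family of similar genes, and Marcks, an actin-binding kinase substrate, at 0.31. Clec4n was at 10.7, 37.2 and 29.8 FPKM in S100A4-negative and at 220, 180 and 209 FPKM in S100A4-positive libraries. Of the other genes described here, C5ar1 was the nearest to C1q, at a distance of 0.45, and Cd55 the farthest, at 2.42.

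C4b, which encodes the C4 that C1 cleaves, was low in every library. It was at 0.154, 0.955 and 0 FPKM in S100A4-negative libraries, from 6, 39 and 0 reads, and at 3.13, 1.40 and 1.81 FPKM in S100A4-positive ones, from 122, 48 and 72 reads. The highest S100A4-negative value lay just under the lowest S100A4-positive value. The difference was 1.21 (SE 0.32, limma adjusted p = 0.0128), and it was 2.81 with a pseudocount of 0.1 and 4.07 with voom on reads, since the size depends on how low values are treated. C4b (chromosome 17, 34728380 to 34743882) has a near copy, C4a, and 15.2% of the 100-base words of its transcripts also occur in those of C4a, so its reads are uncertain. C4a had 1.06 to 1.14 FPKM in the S100A4-negative group and 0.63 to 1.18 FPKM in the other, under the filter.

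C3, the protein on which the 3 pathways converge, had the highest mean level per length of the 9 genes in both groups. C3 was at 73.1, 92.9 and 56.4 FPKM in S100A4-negative and at 493, 300.4 and 246 FPKM in S100A4-positive libraries. In S100A4-negative replicate 3 Cd55 stood above C3, at 59.0 FPKM. Every S100A4-positive value was above every S100A4-negative one, and replicate 1 was the highest of the former. The difference was 2.17 (SE 0.28, limma adjusted p = 6.51e-04), and mean FPKM rose from 74.1 ± 18.3 to 346 ± 130 (SD, n = 3). C3 lies on chromosome 17, 57203970 to 57228136.

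Cfp, encoding properdin (X chromosome, 20925454 to 20931555), was at 23.8, 40.1 and 39.7 FPKM in S100A4-negative and at 134, 124 and 116 FPKM in S100A4-positive libraries. Its values spread little among S100A4-positive libraries. The mean rose 3.61-fold, a difference of 1.86 (SE 0.21, limma adjusted p = 3.27e-04). In S100A4-negative libraries Cfp stood above each of the C1q chains, and in S100A4-positive libraries it stood between C1qa and C1qb.

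C5ar1, the receptor for C5a that draws neutrophils and macrophages to sites of complement activation (chromosome 7, 16246743 to 16259540), was at 12.6, 25.1 and 16.5 FPKM in S100A4-negative libraries. In S100A4-positive libraries it was at 97.2, 197 and 135 FPKM, with replicate 2 highest in each group. The difference was 2.91 (SE 0.31, limma adjusted p = 2.75e-04). In the same libraries 10 of 11 neutrophil markers were called lower and Csf3r higher, beside 43.4% lower and 19.0% higher of all tested genes. The neutrophil markers summed to 3349 to 4957 FPKM in the S100A4-negative group and 518 to 1897 in the other, with no marker at 0 throughout. Between the groups C5ar1 went in the direction of the macrophage markers and opposite to most neutrophil markers. In S100A4-negative replicates 1 to 3 the monocyte and macrophage markers summed to 702, 901 and 814 FPKM, in the order of C5ar1. In S100A4-positive replicates 1 to 3 they summed to 9141, 7930 and 8053 FPKM, highest where C5ar1 was lowest. The part of either cell type in the C5ar1 difference was not tested.

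C3ar1, the receptor for C3a (chromosome 6, 122847138 to 122856161), varied more between libraries than C5ar1. It was at 1.20, 0.536 and 2.66 FPKM in S100A4-negative libraries, from 88, 41 and 214 reads, and at 14.0, 9.96 and 4.36 FPKM in S100A4-positive ones, from 1019, 640 and 326 reads. The highest S100A4-negative and the lowest S100A4-positive library were both replicate 3. The difference was 2.05 (SE 0.44, limma adjusted p = 0.00558). The highest S100A4-positive library was 3.20-fold above the lowest.

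Cd55, the membrane regulator that breaks up C3-cleaving enzymes, was the gene that fell. It was at 34.5, 37.4 and 59.0 FPKM in S100A4-negative and at 12.2, 13.4 and 15.3 FPKM in S100A4-positive libraries. The highest S100A4-positive value was well under the lowest S100A4-negative one. The difference was -1.57 (SE 0.21, limma adjusted p = 7.46e-04), or a mean FPKM from 43.6 ± 13.4 to 13.7 ± 1.58 (SD, n = 3). Beside it, 10 of 10 T cell markers and 8 of 8 B cell markers were called lower, as were 43.4% of all tested genes. The summed B cell markers were 517, 1002 and 1479 FPKM in S100A4-negative replicates 1 to 3, in the same order as Cd55. They were 267, 331 and 436 FPKM in S100A4-positive replicates 1 to 3, again in the order of Cd55. T cell marker sums were 2601, 2604 and 2187 FPKM in S100A4-negative replicates 1 to 3, lowest where Cd55 was highest, and 354, 356 and 488 FPKM in S100A4-positive replicates 1 to 3, there in the order of Cd55. The part of B or T cells in the Cd55 difference was not tested. Cd55 (chromosome 1, 130439027 to 130462744) shares 4.19% of its 100-base words with its neighbour copy Cd55b, which had at most 0.0661 FPKM in any library.

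Set against the mean log2(FPKM + 1) of the monocyte and macrophage markers in the same library, the members fell into different positions. C1qb stood at -0.82 ± 0.64 log2 units relative to the markers in the S100A4-negative group and at -0.45 ± 0.24 in the other (SD, n = 3; p = 0.7, exact permutation test, two-sided). C1qa and C1qc differed by -0.38 and -0.25 between the groups (each exact permutation p = 0.5), C5ar1 by -0.32 (exact permutation p = 0.5) and C3ar1 by -1.19 (exact permutation p = 0.3), all with overlapping groups. C3 differed by -1.06 and Cfp by -1.38, so both were lower relative to these markers in S100A4-positive libraries although their own levels were higher (n = 3; each exact permutation p = 0.1, the smallest possible). C4b differed by -2.03 and Cd55 by -4.81, also without overlap (exact permutation p = 0.1). None of these 9 comparisons could pass adjustment at this size. The C1q values rest on single libraries: without S100A4-negative replicate 1 C1qa differed by -0.79, C1qb by 0.021 and C1qc by -0.61, and without S100A4-negative replicate 2 by -0.027, 0.65 and 0.029. For C5ar1 the value was 0.048 without S100A4-positive replicate 1 and -0.66 without S100A4-positive replicate 2. With a pseudocount of 0.1 C4b differed by -0.69 in place of -2.03. Relative to the red pulp list instead, C1qa, C1qc and C5ar1 changed direction (0.35, 0.48 and 0.40), C1qb differed by 1.10, C3 by -0.33, Cfp by -0.65, C3ar1 by -0.46, C4b by -1.30 and Cd55 by -4.08.

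Of the other 43 complement genes, 12 passed the filter, 27 were under it and 4 (C7, Colec10, Csmd1 and Mbl1) were listed at 0 in every library. Among the 12 tested, 8 were called higher, 2 lower and 2 not called, beside 19.0% higher and 43.4% lower of all tested genes. The median difference of the 12 was 1.59. The filter keeps genes that are high in either group, so the count describes those genes and not the whole cascade. With no filter on low values 22 of 48 complement genes were called, the 9 included, beside 31.1% of all genes in that fit.

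Among recognition proteins of the lectin pathway the ficolins went opposite ways. Fcna, made by macrophages of spleen and liver, was at 4.32, 10.5 and 8.15 FPKM in S100A4-negative and at 47.5, 31.5 and 21.5 FPKM in S100A4-positive libraries (difference 1.99, limma adjusted p = 0.00250). Fcnb, made by immature myeloid cells and neutrophils, fell from 15.6, 19.8 and 17.0 to 6.55, 4.68 and 2.59 FPKM (difference -1.78, limma adjusted p = 0.00119). The proteases that act with C1q and the lectins (C1ra, C1rb, C1s1, C1s2, Masp1 and Masp2), and C2, were all under the filter, with at most 0.772 FPKM in a library. Cfb, factor B of the alternative pathway, was listed at 0 in S100A4-negative libraries and had 13, 8 and 12 reads in S100A4-positive ones; 79.5% of its exon bases also belong to another annotated gene on the same strand, Gm20547. Of the terminal pathway only C8g was tested, at 5.81 ± 0.61 and 4.27 ± 1.52 FPKM (n = 3), and it was not called (difference -0.40, limma adjusted p = 0.146; without S100A4-positive replicate 1 it was called, at -0.63, adjusted p = 0.0198).

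The receptors other than C3ar1 and C5ar1 were mostly higher: 5 of the 6 tested were called higher, beside 19.0% of all tested genes, and Cr2 was not called. Itgax and Itgb2, which encode the chains of complement receptor 4, rose by 2.94 and 1.38 (limma adjusted p = 3.10e-05 and 1.45e-04). Itgam, the chain of complement receptor 3 that pairs with Itgb2, rose by 1.80, but 68.7% of its exon bases also belong to the annotated gene Gm49368. Cd93, a phagocyte surface protein once described as a C1q receptor, rose from 4.01 ± 0.16 to 37.4 ± 19.6 FPKM (SD, n = 3; difference 2.82, limma adjusted p = 3.39e-04). C5ar2, the second C5a receptor, rose by 0.88 from 0.556 ± 0.31 to 1.84 ± 0.31 FPKM (limma adjusted p = 0.00778), and by 1.65 with a pseudocount of 0.1 and 1.83 with voom. Like C4b, C5ar2 passed the filter only through its level in S100A4-positive libraries. Cr2, the complement receptor of B cells, was at 23.7, 61.7 and 121 FPKM in S100A4-negative and at 18.0, 20.1 and 38.9 FPKM in S100A4-positive libraries, with overlapping groups (difference -1.19, limma adjusted p = 0.0987). It was called without S100A4-negative replicate 1 (-1.80, adjusted p = 0.0105). Vsig4, the complement receptor of tissue-resident macrophages, had 0.128 FPKM in S100A4-positive replicate 1 and was listed at 0 in the other libraries.

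Regulators moved in different directions. Clu, clusterin, an inhibitor of the terminal complex, rose by 2.47 (SE 0.65, limma adjusted p = 0.0131), with S100A4-negative values of 1.92, 18.6 and 3.38 FPKM, the second of these under the lowest S100A4-positive value of 23.9. Cr1l, the mouse membrane regulator Crry, was at 50.4 ± 1.42 and 39.2 ± 0.97 FPKM (n = 3; difference -0.35, limma adjusted p = 0.0164), beside a median difference of -0.36 over all genes. Median-of-ratios rescaling gave 0.02 and ended the call. The call was also lost after quantile normalization and when replicate 3 of either group was left out, with limma adjusted p of 0.0856, 0.0564 and 0.0596. Cd46 and Susd4, both under the filter, were at 1.10 ± 0.23 and 1.18 ± 0.53 FPKM in S100A4-negative and at 0.359 ± 0.18 and 0.122 ± 0.033 FPKM in S100A4-positive libraries (SD, n = 3). Serping1, Cfi, C4bp, Vtn, Cd59a and Cd59b were under the filter too.

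**Figure D4:**
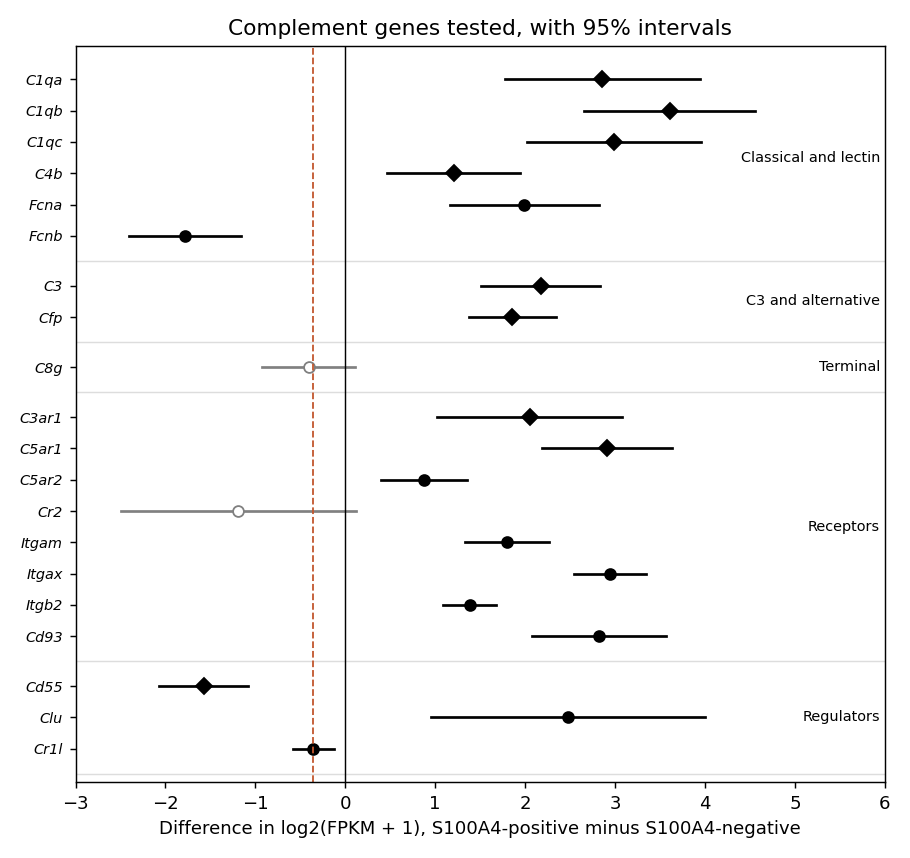
Difference in log2(FPKM + 1), S100A4-positive minus S100A4-negative, with 95% intervals from limma, for 20 of the 21 complement genes tested, by role (diamonds, the 9 genes described first; circles, other complement genes; open grey circles, not called; dashed line, the median of all genes at -0.36). Most genes lie to the right of 0, from 0.88 (C5ar2) to 3.61 (C1qb), while Cd55, Fcnb, Cr1l and the uncalled Cr2 and C8g lie to the left.

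In the authors' deposited table all 9 genes are marked significant, in the same directions. Cr1l, called lower above, is not marked significant there, with a log2 fold change of 0.026. Of the complement genes under the filter, C1ra (2.22), Susd4 (-2.89) and Cfb (at 0 in the S100A4-negative group) are marked significant there. That table gives log2 fold changes of 3.90 for C1qb, 3.28 for C1qc and 3.08 for C1qa, of 3.38 for C5ar1 and 3.11 for C3ar1, of 2.60 for C3 and 2.24 for Cfp, and of 2.85 for C4b and -1.28 for Cd55. Its fold changes are ratios of mean normalized reads with no pseudocount. Their sizes are therefore not on the scale of the differences in log2(FPKM + 1) given above. The deposited table rests on the same libraries and is no independent evidence.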

How the data were processed

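RNA was measured as polyadenylated RNA sequencing of 6 libraries, 3 S100A4-negative and 3 S100A4-positive, and each table column was matched to its sample by name. The deposited expression table gives FPKM per gene and library; HISAT2 2.1.0, Cufflinks, Cuffnorm and the build mm10 are named without roles, per the submitters' processing notes. Per the file headers, the second table deposited by the authors holds group means of normalized reads (signal), log2 fold changes and raw and adjusted p-values; its test, and the counting tool and its strand setting, are not given in the sources used here. 

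Reads were recovered from FPKM and the authors' group means: all 100006 values tried came within 0.02 of a whole read. The fit was limma 3.58.1 (R 4.3.3) with trend on log2(FPKM + 1), genes averaging 1 FPKM or more, and Benjamini-Hochberg adjustment over all 13241. The limma fit was tested on simulated data in which few genes changed, whereas 62.3% of the tested genes were called here. Positions come from GENCODE M21 (GRCm38, the build mm10 names) and upstream sequence from RefSeq GRCm38.p6. The set of upstream sequences used had an entry for 7 of the 9 genes, and none for C1qa and C4b. Python 3.11.15, numpy 2.4.6, pandas 2.3.3, scipy 1.17.1 and matplotlib 3.10.9 were used.

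The members and lists were chosen with earlier results of these data known. Named genes are the 9 members; per list of other complement genes, up to 4 called genes with the largest difference, or the 2 with the smallest p if none passed; and the 5 genes nearest to C1q, leaving out predicted genes and receptor or antibody segments. Other complement genes were named after their values were seen. A gene that the rule selects is not reported here by name and stays in the counts. The alternatives were a pseudocount of 0.1, no filter or a filter of 5, median-of-ratios and quantile scaling, limma without trend, the replicate number as a block, voom on reads, and leaving out each library.

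Further lists were markers of 11 cell types, and of all tested genes 19.0% were called higher and 43.4% lower. Those not described in the report were, in genes called higher and lower: dendritic cell 5 and 0 of 6, patrolling monocyte 5 and 0 of 6, marginal zone macrophage 3 and 0 of 5, NK cell 0 and 3 of 3, plasma cell 0 and 5 of 5, and platelet 0 and 1 of 2 tested; of the 14 monocyte and macrophage markers 13 were higher and Ly6c2 was not called.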

Additional observations from a re-analysis of the deposited data

How the results depend on the processing

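The 9 complement genes kept their direction and their call under every alternative that tested them (125 fits in all; C4b is not tested with a filter of 5), and leaving out each library gave 8 higher and 1 lower each time. C3ar1 ranged from 1.73 to 2.80, with a limma adjusted p of up to 0.0240, and C4b from 0.98 to 4.07, with one of up to 0.0440. Over all genes the count of calls was 6198 to 8916, and the share of calls that were higher was 30.4% on the deposited scale, 53.3% with median-of-ratios scaling (median difference shifted by 0.34) and 42.0% with quantile scaling (shifted by 0.20).

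Of the other complement genes, 1 was called lower with median-of-ratios or quantile scaling and 4 without a filter (Fcnb, Cr1l, Cd46 and Susd4), against 2; leaving out a library gave 1 to 3. Cr1l reversed to 0.024 with median-of-ratios. Relative to macrophage markers, the red pulp list reversed C1qa (0.35), C1qc (0.48) and C5ar1 (0.40) and moved C1qb (1.10), C3 (-0.33), C3ar1 (-0.46), C4b (-1.30), Cd55 (-4.08) and Cfp (-0.65); a pseudocount of 0.1 moved C4b (-0.69) and Cfp (-1.61). Leaving out a library gave -0.79 to -0.027 for C1qa, 0.021 to 0.65 for C1qb, -0.61 to 0.029 for C1qc and -0.66 to 0.048 for C5ar1; the turns came without S100A4-negative replicate 2 and S100A4-positive replicate 1. The causes were not tested. C1qb share differences were 10.6 to 11.9 percentage points.

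With the replicate number as a block 8857 genes were called against 8253, and the 9 genes kept their calls; Cr2 gained one (-1.19, limma adjusted p = 0.0120). Deviations of libraries with the same number correlated at 0.38, 0.083 and 0.37, and those with different numbers at -0.38 to 0.15; S100A4-positive replicate 2 correlated best with S100A4-negative replicate 3 and the other libraries with their own number. The labels do not say that a number marks a shared animal or day, and whether the libraries are paired is unresolved. Depth limits C4b, with 0 to 39 reads in S100A4-negative libraries.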

Other observations

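Without a filter on low values, 22 complement genes were called, beside 31.1% of the 28627 genes in that fit, and 3 of them were not tested in the report's fit. Cfb, factor B, was higher by 0.46 (limma adjusted p = 0.0018), and Cd46 and Susd4, membrane regulators of C3 cleavage, had differences of -0.63 and -0.93 (limma adjusted p = 0.0251 and 0.00985). These genes have few reads: Susd4 had 20, 43 and 22 in S100A4-negative and 3, 3 and 2 in S100A4-positive libraries, and Cd46 had 51, 53 and 38 against 14, 7 and 23. Cfb was listed at 0 in every S100A4-negative library and had 13, 8 and 12 reads in the S100A4-positive ones. Of its exon bases, 79.5% also belong to Gm20547 on the same strand.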
